A study of Caenorhabditis elegans with 8 samples.

Results

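The proteasome is the barrel-shaped protease that degrades proteins tagged with ubiquitin, and its subunits are encoded in *C. elegans* by the *pas-*, *pbs-*, *rpn-* and *rpt-* genes. All genes on the array whose symbol begins in one of these 4 ways were taken, which gave 33 of 18877 genes, measured by 34 of 20401 probes. Of these genes, 14 encode the core particle and 19 the regulatory particle. Each of 8 arrays compared Cy3-labeled RNA of a mutant strain with Cy5-labeled RNA of wildtype N2, both from whole hermaphrodites between the late L4 larval stage and young adulthood, grown for 72 h at 20°C after synchronization at the first larval stage. All 3 mutant strains were homozygous for *sqt-1(sc13) age-1(mg44)*, a null allele of the PI3 kinase gene *age-1* linked to a body-shape marker. CY262 (3 arrays) also carried *bvIs1*, which restricts *age-1* expression to the intestine. CY251 (3 arrays) carried *bvIs2*, which restricts it to neurons. The *age-1(mg44)* animals (2 arrays) had no transgene and were offspring of heterozygous mothers of the balanced strain SP75, so that maternal *age-1* product carried them to adulthood. Each restricted strain is thus represented by a single integrated transgene, and the methods describe the wildtype animals as of similar or slightly later stage.

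In the core particle, a pair of outer rings of PAS (alpha) subunits gates the entrance, and a pair of inner rings of PBS (beta) subunits holds the peptidase sites. The regulatory particle caps the core and has a base and a lid. The base holds the RPT ATPases, which unfold substrates, the scaffolds RPN-1 and RPN-2, and the ubiquitin receptors RPN-10 and RPN-13, whereas the lid removes ubiquitin through RPN-11. Proteasome genes are expressed in all tissues and strongly in the germline, and proteasome activity has been tied to lifespan in *C. elegans* mutants of insulin-like signaling and of the germline.

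Several facts about the arrays bear on the subunit values. All 33 proteasome genes gave signals well above background in both channels on all 8 arrays, with none saturated, as did 86.1% to 92.8% of the spots in any one channel. The *age-1* transcript itself was below wildtype on every array (log2 ratio −1.88 to −1.03), also in the strains with a transgene, so it does not tell the 3 strains apart. The records disagree on 4 arrays: the names of the files exchange CY262 replicate 2 and CY251 replicate 2, and the columns of the value table assign CY262 replicates 2 and 3 and CY251 replicates 2 and 3 differently. The sample labels were followed here, and the mean of CY262 and CY251 was also compared with *age-1(mg44)*, since that comparison hardly depends on the assignment. All mutant strains differed widely from wildtype in germline markers. Of 37 sperm markers, 36 passed the threshold as higher in CY262, 36 in CY251 and 33 in *age-1(mg44)* (median log2 fold change 5.71, 6.06 and 5.97). Among 16 oocyte and early embryo markers, 13, 12 and 9 passed it as lower (medians −1.23, −1.33 and −1.54).

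Most proteasome genes had negative log2 ratios of mutant to wildtype transcript, of which 9 to 11 passed the test as lower in each mutant strain. In *age-1(mg44)* the log2 ratio to wildtype was negative for 29 of the 32 subunit genes that could be tested, with a median of −0.67, or 0.627 of the wildtype level, against a median of −0.01 over all genes. Of these genes, 9 passed the threshold (limma, Benjamini-Hochberg adjusted p below 0.05 over all genes), all as lower in the mutant. They encode core subunits (*pbs-2* and *pbs-7*), base subunits (*rpn-1*, *rpn-2*, *rpn-10*, *rpt-2* and *rpt-4*) and lid subunits (*rpn-6.1* and *rpn-7*). That is 28.1% of the subunits, whereas 19.6% of all genes passed in either direction and 7.96% as lower. At an unadjusted p below 0.05 there were 23 of 32 subunits, against 6556 of 18865 genes (34.8%). *rpn-12* had no usable spot on either *age-1(mg44)* array.

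The picture was similar in the strains with restricted *age-1*. In CY262 the subunit median was −0.57, 30 of 33 genes were below wildtype, 11 passed as lower and 1 (*rpn-13*) as higher. The *rpn-13* values here and in CY251 rest on a probe also listed for the neighboring gene *let-767*. The 12 genes are 36.4% of the subunits, against 32.4% of all genes that passed and 14.3% that passed as lower. At an unadjusted p below 0.05 there were 21 of 33 subunits, against 8591 of 18877 genes (45.5%). In CY251 the median was −0.59, again with 30 of 33 genes below wildtype, and 11 passed as lower and 2 (*rpn-13* and *rpn-6.2*) as higher. They are 39.4% of the subunits, against 31% of all genes in either direction and 12.7% as lower. At an unadjusted p below 0.05 there were 21 of 33 subunits, against 8027 of 18873 genes (42.5%). The share of subunits past the threshold on adjusted p was thus near that of all genes in both strains. The calls of the subunits lay mostly on the lower side. The 5 genes *pbs-2*, *pbs-7*, *rpn-10*, *rpt-2* and *rpt-4* passed as lower in all 3 strains. All 3 comparisons are against wildtype RNA on the same arrays, which may in part be the same RNA, and the dyes were not swapped, so any dye bias of a probe enters all of them alike.

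**Figure D1:**
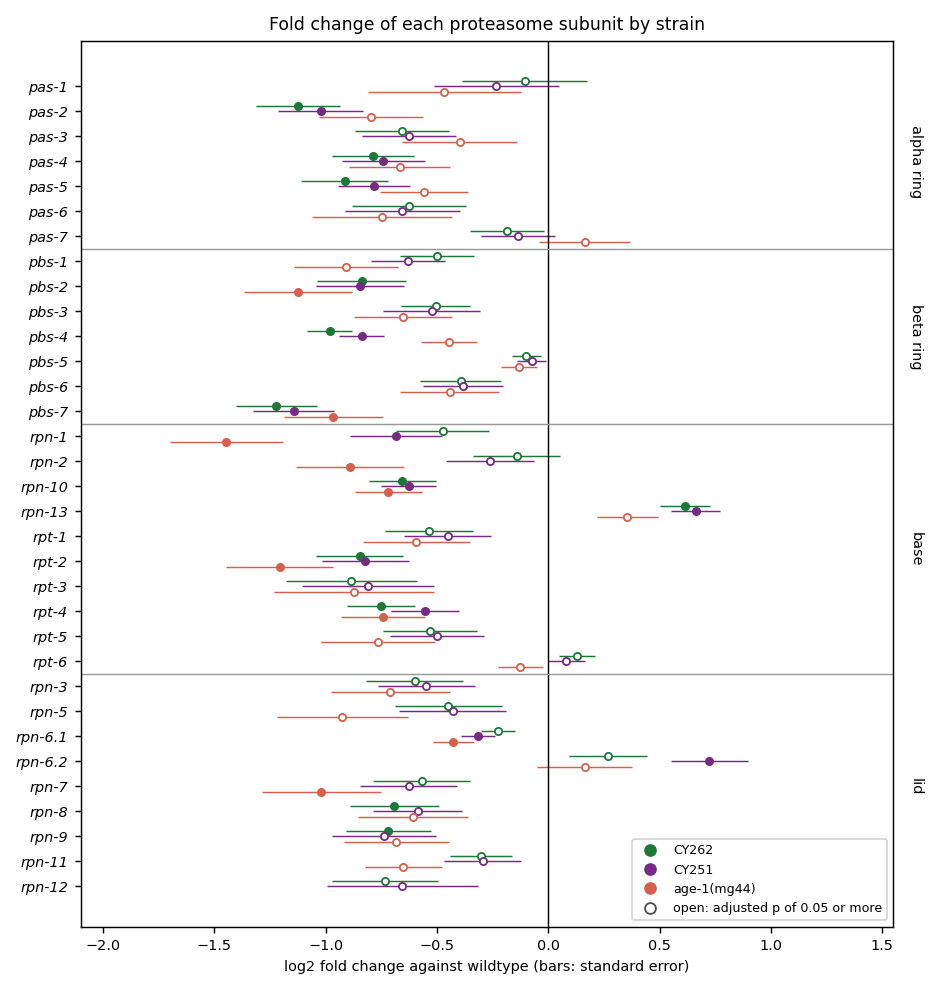
Fold change of each of the 33 proteasome genes against wildtype in CY262, CY251 and *age-1(mg44)*. The horizontal axis is the log2 fold change with its standard error, filled points passed the threshold and open points did not. Most points lie left of 0, and *rpn-13* and *rpn-6.2* lie to the right in all 3 strains. *rpn-13* is drawn from its probe that is also listed for *let-767*.

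The size of these falls depended on the normalization. Loess removes a trend of the ratio with signal brightness within each array. With each array centred on its median instead, the subunit median was −1.42 in CY262, −1.42 in CY251 and −1.51 in *age-1(mg44)*, and 30, 31 and 28 subunits passed the threshold, all as lower, among 62.6%, 66.3% and 59.7% of all genes. The sign of the subunit median was negative in all 3 strains under every setting that was run.

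The arrays of one strain differed in how far the subunits lay below wildtype. The median over the subunits was −0.27, −0.50 and −0.90 on the CY262 arrays of replicates 1, 2 and 3, −0.16, −0.87 and −0.63 on those of CY251, and −0.32 and −0.95 on the *age-1(mg44)* arrays of replicates 1 and 2. Every array therefore had its median below wildtype, and in each strain the array with replicate number 1 lay closest to it. This split touched nearly every subunit: the replicate 1 value was above the mean of the other arrays of its strain for 25 of 29 genes in CY262, 28 of 29 in CY251 and 28 of 30 in *age-1(mg44)*. Over all genes it was above for 10088 of 18750, 9661 of 18792 and 10374 of 18621. Leaving out an *age-1(mg44)* array leaves a single one, which is then assumed to vary like the arrays of the other strains. Fewer calls follow in part from the smaller number, so no count is given for these settings. Without the *age-1(mg44)* array of replicate 2, the subunit median in that strain was −0.32. With all replicate 1 arrays left out, it was −0.95.

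**Figure D2:**
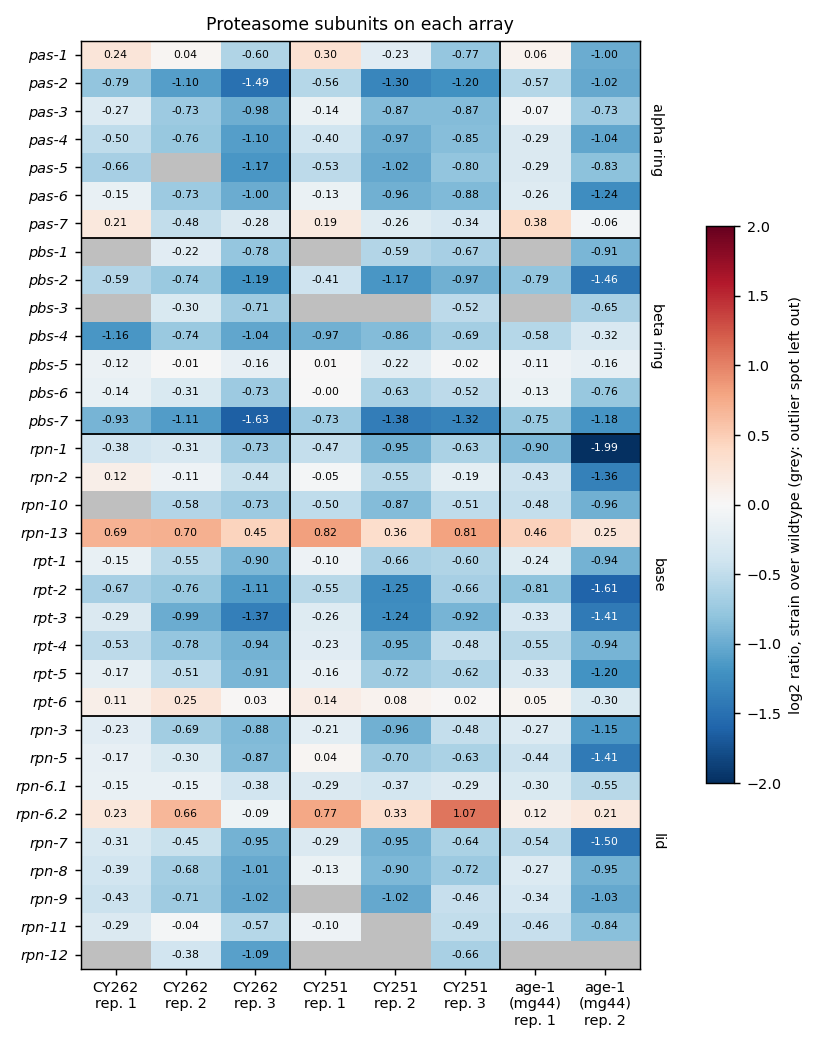
Log2 ratio of strain over wildtype for each proteasome gene (rows, grouped by ring, base and lid) on each array (columns). Blue is below and red above wildtype, and grey cells are spots left out as outliers; the columns of replicate 1 are paler than the others of their strain.

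The spread between arrays was far larger than that between spots. *rpn-3*, a lid subunit that holds the lid to the base, was printed in 10 spots, and the SD between them was 0.0230 to 0.0402 on any one array. The array means of *rpn-3* were −0.23, −0.69 and −0.88 in CY262, −0.21, −0.96 and −0.48 in CY251, and −0.27 and −1.15 in *age-1(mg44)*. All 10 spots lay below wildtype on every array (9 spots on the CY262 array of replicate 2, where 1 was an outlier). The fold change of *rpn-3* did not pass the threshold in any strain (adjusted p = 0.0762 in CY262, 0.103 in CY251 and 0.112 in *age-1(mg44)*).

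The markers of oocytes and early embryos, which carry large amounts of maternal transcript, moved in the same way across the arrays. Their median log2 ratio was −0.74, −1.19 and −1.72 in CY262, −0.79, −1.65 and −1.37 in CY251, and −0.94 and −2.09 in *age-1(mg44)*, again closest to wildtype on the replicate 1 arrays. All 16 markers were well above background in both channels on all arrays, and their summed normalized signal was 43970 to 88944 in the strain channels, against 119439 to 246209 in the wildtype channels. By contrast, the median of the sperm markers was between 5.45 and 6.25 on all arrays. The cytosolic ribosomal protein genes, which like the proteasome are expressed in all cells, had medians of 0.02 in CY262, 0.06 in CY251 and 0.07 in *age-1(mg44)*. On single arrays the ribosomal median was 0.39, −0.09 and −0.16 in CY262, 0.21, 0.10 and −0.17 in CY251, and 0.19 and −0.09 in *age-1(mg44)*, so that it too was highest on the replicate 1 array of each strain. In RNA of whole animals, fewer cells of a type and less RNA per cell cannot be told apart, and the part of the germline in the subunit values was not tested. Since the wildtype may have been slightly later in development, stage and strain cannot be told apart in the comparisons with wildtype either.

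**Figure D3:**
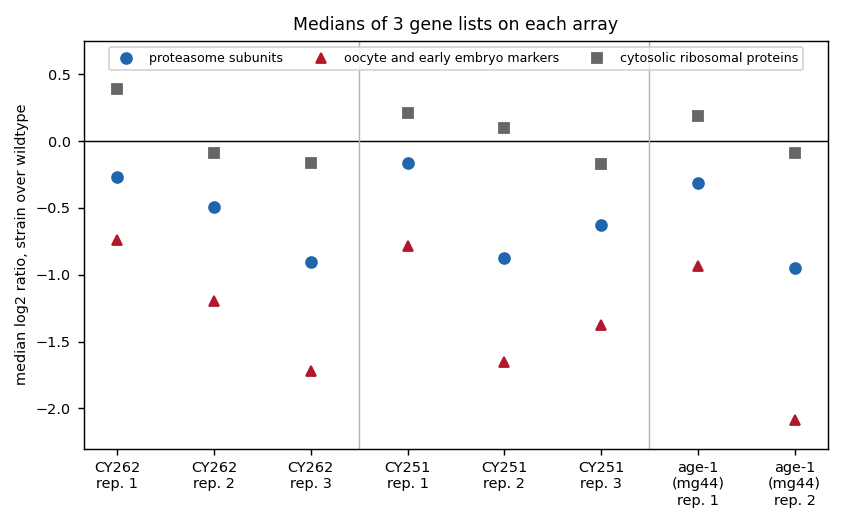
Median log2 ratio of strain over wildtype on each array for the proteasome genes (circles), the oocyte and early embryo markers (triangles) and the cytosolic ribosomal protein genes (squares). The oocyte markers lie below the proteasome genes on every array, and both are closest to 0 on the replicate 1 arrays.

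Of the 7 alpha ring genes, *pas-2*, *pas-4* and *pas-5* passed the threshold as lower in CY262 and CY251, and no gene of the ring passed in *age-1(mg44)*. *pas-2* had log2 ratios of −0.79, −1.10 and −1.49 in CY262, −0.56, −1.30 and −1.20 in CY251, and −0.57 and −1.02 in *age-1(mg44)*. Every array was below wildtype, and the fold change was −1.12 ± 0.189 in CY262 (SE, adjusted p = 0.00700), −1.02 ± 0.189 in CY251 (adjusted p = 0.00835) and −0.80 ± 0.232 in *age-1(mg44)* (adjusted p = 0.0568). *pas-7* was the highest core gene in *age-1(mg44)*, and its arrays lay on both sides of wildtype in each strain. Its ratios were 0.21, −0.48 and −0.28 in CY262, 0.19, −0.26 and −0.34 in CY251, and 0.38 and −0.06 in *age-1(mg44)*. *pas-1* was similarly split, with 0.24, 0.04 and −0.60 in CY262, 0.30, −0.23 and −0.77 in CY251, and 0.06 and −0.999 in *age-1(mg44)*. Neither passed in any strain. The remaining genes, *pas-3* and *pas-6*, were below wildtype on all 8 arrays, from −0.07 to −1.24, and did not pass.

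Of the 3 peptidase subunits of the beta ring, *pbs-2* passed as lower in all strains, and *pbs-1* and *pbs-5* in none. PBS-2 carries the trypsin-like site. *pbs-2* had log2 ratios of −0.59, −0.74 and −1.19 in CY262, −0.41, −1.17 and −0.97 in CY251, and −0.79 and −1.46 in *age-1(mg44)*, all below wildtype. It had the lowest fold change of the core in *age-1(mg44)*, −1.12 ± 0.242 (adjusted p = 0.0241), and passed in CY262 (−0.84 ± 0.198, adjusted p = 0.0211) and CY251 (−0.85 ± 0.198, adjusted p = 0.0196). PBS-5 carries the chymotrypsin-like site, which in yeast and mammals contributes most to protein breakdown. *pbs-5* stayed within 0.22 of wildtype on every array: −0.12, −0.01 and −0.16 in CY262, 0.01, −0.22 and −0.02 in CY251, and −0.11 and −0.16 in *age-1(mg44)*. The 95% interval of its fold change in *age-1(mg44)* was −0.32 to 0.06, whereas that of *pbs-2* was −1.70 to −0.54. With median centring in place of loess, *pbs-5* was lower in *age-1(mg44)* by −1.04 ± 0.201 (adjusted p = 0.00567), so its position near wildtype depends on the normalization.

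PBS-1 carries the caspase-like site. The *pbs-1* spot was an outlier on the 3 arrays of replicate 1, which left −0.22 and −0.78 in CY262, −0.59 and −0.67 in CY251, and −0.91 in the single *age-1(mg44)* array. No strain passed (adjusted p = 0.102, 0.0673 and 0.0841). With the outlier spots kept, the replicate 1 arrays gave −0.29 in CY262, −0.23 in CY251 and −0.40 in *age-1(mg44)*, so that all 8 arrays were below wildtype, and *pbs-1* then passed in CY251 (−0.50, adjusted p = 0.0495).

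Among the other beta subunits, *pbs-7* had the largest fall of all proteasome genes in both transgenic strains. Its log2 ratios were −0.93, −1.11 and −1.63 in CY262, −0.73, −1.38 and −1.32 in CY251, and −0.75 and −1.18 in *age-1(mg44)*. The fold change was −1.22 ± 0.181 in CY262 (adjusted p = 0.00469), −1.14 ± 0.181 in CY251 (adjusted p = 0.00468) and −0.97 ± 0.222 in *age-1(mg44)* (adjusted p = 0.0290). *pbs-4* had the smallest adjusted p of the subunits in CY262 and CY251. It was the one beta gene whose arrays in both strains lay below both *age-1(mg44)* arrays, with −1.16, −0.74 and −1.04 in CY262, −0.97, −0.86 and −0.69 in CY251, and −0.58 and −0.32 in *age-1(mg44)*. Against wildtype its fold change was −0.98 ± 0.102 in CY262 (adjusted p = 0.00157), −0.84 ± 0.102 in CY251 (adjusted p = 0.00185) and −0.45 ± 0.125 in *age-1(mg44)* (adjusted p = 0.0508). *pbs-6* did not pass in any strain, with fold changes of −0.44 to −0.38. *pbs-3* was an outlier spot on 4 arrays, which left 2 arrays in CY262 and 1 each in CY251 and *age-1(mg44)*, with log2 ratios of −0.30 and −0.71, −0.52, and −0.65. It passed in none, and with the outlier spots kept its fold change in *age-1(mg44)* was −0.29, with replicate 1 above wildtype there (0.08) and in CY251 (0.07).

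In the base, the 6 ATPase genes were not alike. *rpt-2* and *rpt-4* passed as lower in all 3 strains, *rpt-1*, *rpt-3* and *rpt-5* were below wildtype on every array without passing, and *rpt-6* was close to wildtype. *rpt-2* had log2 ratios of −0.67, −0.76 and −1.11 in CY262, −0.55, −1.25 and −0.66 in CY251, and −0.81 and −1.61 in *age-1(mg44)*. Its fold change was −0.85 ± 0.195 in CY262 (adjusted p = 0.0197), −0.82 ± 0.195 in CY251 (adjusted p = 0.0209) and −1.21 ± 0.239 in *age-1(mg44)* (adjusted p = 0.0189). *rpt-3* had a similar mean in *age-1(mg44)* to the genes that passed, −0.87, but its arrays ranged from −0.33 to −1.41 there (adjusted p = 0.141). *rpt-6* had ratios of 0.11, 0.25 and 0.03 in CY262, 0.14, 0.08 and 0.02 in CY251, and 0.05 and −0.30 in *age-1(mg44)*. It did not pass in any strain. Like *pbs-5* it moved with the processing, and its lowest fold change over 29 settings was −0.81 in CY262, −0.92 in CY251 and −1.04 in *age-1(mg44)*.

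The large scaffold subunits of the base are RPN-1, which binds shuttle factors, and RPN-2. *rpn-1* had the largest fall of all subunits in *age-1(mg44)*, −1.45 ± 0.255 or 0.367 of the wildtype level (adjusted p = 0.0135). Its log2 ratios were −0.38, −0.31 and −0.73 in CY262, −0.47, −0.95 and −0.63 in CY251, and −0.90 and −1.99 in *age-1(mg44)*. All arrays were below wildtype, and it also passed in CY251 (−0.68 ± 0.208, adjusted p = 0.0479) but not in CY262 (−0.47 ± 0.208, adjusted p = 0.124). *rpn-2* had ratios of 0.12, −0.11 and −0.44 in CY262, −0.05, −0.55 and −0.19 in CY251, and −0.43 and −1.36 in *age-1(mg44)*. Only in *age-1(mg44)* did it pass among the 3 comparisons with wildtype (−0.89 ± 0.242, adjusted p = 0.0463).

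Of the ubiquitin receptors, *rpn-10* fell in all 3 strains. Its log2 ratios were −0.58 and −0.73 in CY262 (the replicate 1 spot was an outlier), −0.50, −0.87 and −0.51 in CY251, and −0.48 and −0.96 in *age-1(mg44)*. The fold changes were −0.66 ± 0.150 (adjusted p = 0.0247), −0.63 ± 0.123 (adjusted p = 0.0145) and −0.72 ± 0.150 (adjusted p = 0.0284), in that order of strains, and the 3 estimates lay within 1 standard error of each other.

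*rpn-13* was the one subunit above wildtype on all 8 arrays, and this rests on the choice of probe. Its brighter probe, which was used in the fit, gave 0.69, 0.70 and 0.45 in CY262, 0.82, 0.36 and 0.81 in CY251, and 0.46 and 0.25 in *age-1(mg44)*. On that probe the fold change was 0.61 ± 0.111 in CY262 (adjusted p = 0.00890), 0.66 ± 0.111 in CY251 (adjusted p = 0.00582) and 0.36 ± 0.136 in *age-1(mg44)* (adjusted p = 0.118). The files list that probe for *rpn-13* and also for its neighbor *let-767*, which encodes a steroid dehydrogenase and has no other probe on the array. A second probe is listed for *rpn-13* alone and was below wildtype on all 8 arrays: −0.19, −0.48 and −0.73 in CY262, −0.22, −0.67 and −0.57 in CY251, and −0.28 and −1.01 in *age-1(mg44)*. In a fit with the second probe in place of the first, *rpn-13* had fold changes of −0.47 ± 0.169 in CY262 (adjusted p = 0.0759), −0.49 ± 0.169 in CY251 (adjusted p = 0.0719) and −0.64 ± 0.207 in *age-1(mg44)* (adjusted p = 0.0746). The values of the probes do not overlap, and which gene the first one measured cannot be told apart here. It was the only one of the 34 subunit probes listed for more than 1 gene.

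**Figure D4:**
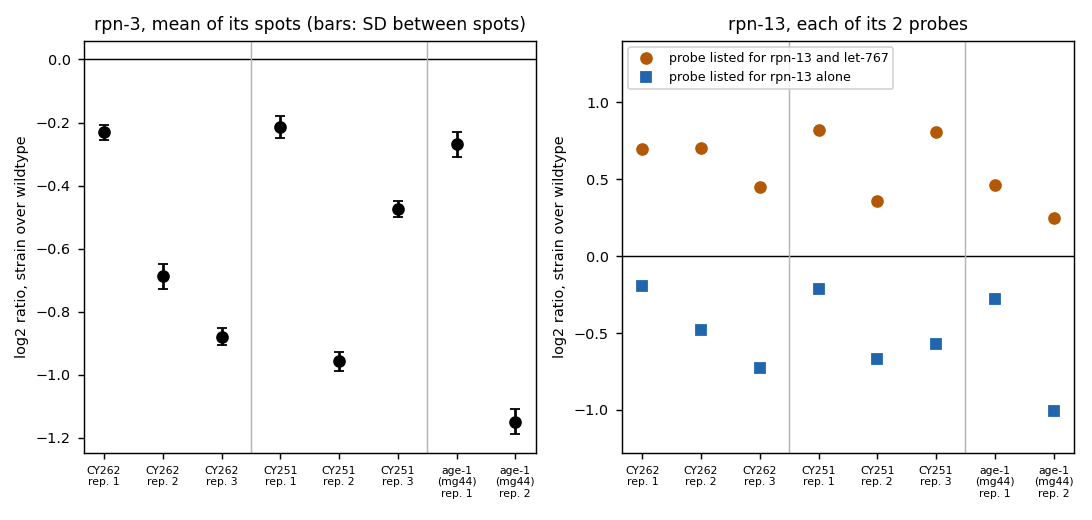
Genes measured more than once: left, the mean of the *rpn-3* spots on each array with the SD between spots; right, the 2 *rpn-13* probes. The vertical axes are log2 ratios of strain over wildtype; the *rpn-3* bars are short beside the differences between arrays, and the *rpn-13* probe listed for *let-767* too lies above 0 on all arrays, whereas the probe listed for *rpn-13* alone lies below 0.

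The lid has a pair of *rpn-6* genes. RPN-6 clamps the lid to the core particle, and the level of *rpn-6.1* has been tied to proteasome activity in long-lived *C. elegans* without a germline. *rpn-6.1* had log2 ratios of −0.15, −0.15 and −0.38 in CY262, −0.29, −0.37 and −0.29 in CY251, and −0.30 and −0.55 in *age-1(mg44)*. The falls were small. *rpn-6.1* passed in CY251 (−0.32 ± 0.0751, adjusted p = 0.0212) and *age-1(mg44)* (−0.43 ± 0.0920, adjusted p = 0.0243). In CY262 it did not (−0.23 ± 0.0751, adjusted p = 0.0605). Its paralog *rpn-6.2* ran the other way. Its ratios were 0.23, 0.66 and −0.09 in CY262, 0.77, 0.33 and 1.07 in CY251, and 0.12 and 0.21 in *age-1(mg44)*. Only in CY251 did *rpn-6.2* pass the threshold (0.72 ± 0.174, adjusted p = 0.0218), whereas CY262 (0.27 ± 0.174, adjusted p = 0.272) and *age-1(mg44)* (0.16 ± 0.213, adjusted p = 0.628) did not. That call was lost under the value table's assignment of arrays (0.45 ± 0.212, adjusted p = 0.156) and with median centring (0.22 ± 0.170, adjusted p = 0.284).

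RPN-11 is the deubiquitinase of the lid. *rpn-11* had log2 ratios of −0.29, −0.04 and −0.57 in CY262, −0.10 and −0.49 in CY251 (the replicate 2 spot was an outlier), and −0.46 and −0.84 in *age-1(mg44)*. Its fold change missed the threshold in *age-1(mg44)* (−0.65 ± 0.172, adjusted p = 0.0519) and with outlier spots kept it passed there (adjusted p = 0.0349). *rpn-7* had the lowest lid value in *age-1(mg44)*, −1.02 ± 0.266 (adjusted p = 0.0417). Its ratios were −0.31, −0.45 and −0.95 in CY262, −0.29, −0.95 and −0.64 in CY251, and −0.54 and −1.50 in *age-1(mg44)*, all below wildtype. The next largest lid value there was that of *rpn-5*, with ratios of −0.17, −0.30 and −0.87 in CY262, 0.04, −0.70 and −0.63 in CY251, and −0.44 and −1.41 in *age-1(mg44)*. *rpn-5* did not pass in any strain (adjusted p = 0.191, 0.222 and 0.0720). *rpn-8* and *rpn-9* passed as lower in CY262 alone (−0.69 and −0.72, adjusted p = 0.0402 and 0.0381), and both had similar fold changes in CY251 (−0.59 and −0.74) and *age-1(mg44)* (−0.61 and −0.68) that did not pass. *rpn-12* was left with log2 ratios of −0.38 and −1.09 in CY262 and a single array, −0.66, in CY251, and did not pass in either (adjusted p = 0.134 and 0.278, the lone array being assumed to vary like the others).

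The core and the regulatory particle were then compared. In *age-1(mg44)* the median fold change was −0.60 over 14 core genes, of which 2 passed as lower, and −0.71 over 18 regulatory genes, of which 7 passed. Among all genes, 7.96% passed as lower there. In CY262 the medians were −0.64 for the core, with 6 of 14 lower, and −0.54 for the regulatory particle, with 5 of 19 lower and 1 higher. The lower share of all genes was 14.3% for this strain. In CY251 the medians were −0.64, with 6 of 14 lower, and −0.55, with 5 of 19 lower and 2 higher, beside an all-gene lower share of 12.7%. The higher calls in both transgenic strains include *rpn-13*, on the probe also listed for *let-767*. Since the all-gene share differed too, the counts do not tell a particle's change between strains from that of all genes. The particles thus differed by about 0.1 in each strain, and stood in the opposite order in *age-1(mg44)* and the transgenic strains. Within single arrays, the core median minus the regulatory median was −0.15, −0.28 and −0.11 in CY262, −0.11, −0.0030 and −0.28 in CY251, and 0.06 and 0.12 in *age-1(mg44)*. The SD of this value between arrays was 0.0886 in CY262 (3 arrays), 0.138 in CY251 (3 arrays) and 0.0444 in *age-1(mg44)* (2 arrays). All 6 values of the transgenic strains were below 0 and both of *age-1(mg44)* above it, although the CY251 value of replicate 2 was nearly 0 and was 0.01 without *rpn-6.2*. Genes of one particle are not replicates, and this difference between strains was not tested.

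**Figure D5:**
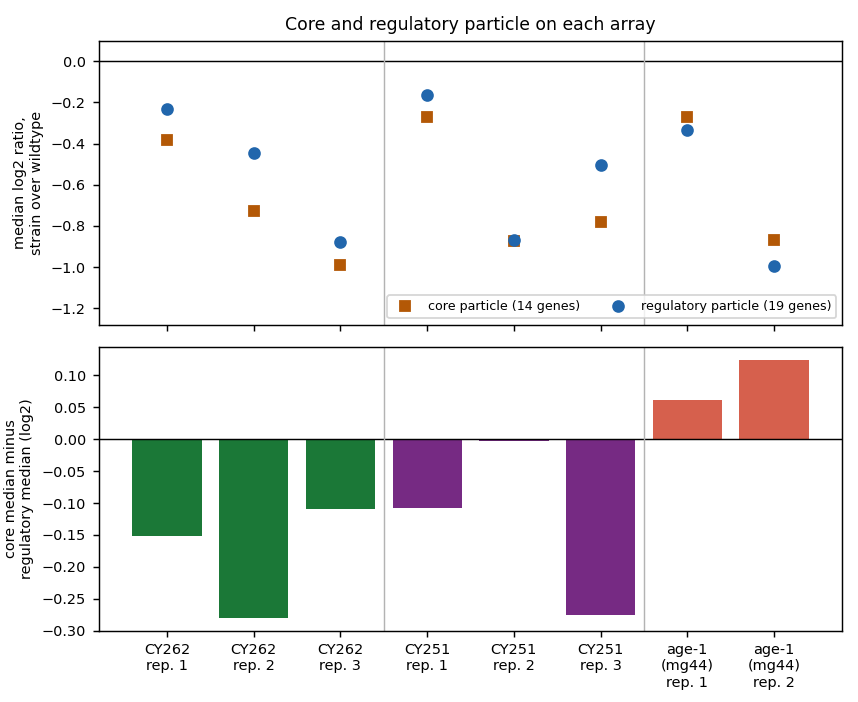
Top, median log2 ratio of strain over wildtype of the core particle (squares) and the regulatory particle (circles) on each array. Bottom, core median minus regulatory median on each array, which was −0.28 to −0.0030 in CY262 and CY251 and 0.06 to 0.12 in *age-1(mg44)*.

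Set against *age-1(mg44)*, the strains with restricted *age-1* showed no subunit past the threshold. This comparison asks whether *age-1* in the intestine or in neurons shifts the mutant pattern, and the dye effect cancels in it. In limma, 0 of 32 subunits passed for CY262, for CY251 and for the mean of both against *age-1(mg44)* (unadjusted p below 0.05 for 3, 1 and 3), and 0 in the methods' t-test. Over all genes, 0.0265%, 0.0053% and 0.0265% passed, that is 5, 1 and 5 genes, and 6.76%, 6.79% and 8.14% had an unadjusted p below 0.05. For the mean of both strains, 7 of 14 core genes and 16 of 18 regulatory genes, among them all 10 base genes, had a value above that of *age-1(mg44)*. The medians of the difference were −0.03 for the core and 0.24 for the regulatory particle, against 0.01 over all genes, of which 10135 of 18862 were above 0. These counts rest on 2 *age-1(mg44)* arrays. Without that of replicate 1, the medians were 0.11 for the core and 0.50 for the regulatory particle, and without that of replicate 2 they were −0.41 and −0.04.

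The largest differences between the transgenic strains and *age-1(mg44)* were those of the scaffolds and of *rpn-5*. *rpn-1* was higher by 0.87 ± 0.295 (95% interval 0.16 to 1.57, adjusted p = 0.554) and *rpn-2* by 0.69 ± 0.279 (0.02 to 1.36, adjusted p = 0.604), neither past the threshold. For *rpn-1* all transgenic arrays but CY251 replicate 2 lay above both *age-1(mg44)* arrays, and for *rpn-2* all but CY262 replicate 3 and CY251 replicate 2, so the groups overlapped for both. *rpn-5* differed by 0.49 ± 0.339 (−0.33 to 1.30, adjusted p = 0.756). In the opposite direction, *pbs-4* was lower by −0.46 ± 0.144 (−0.81 to −0.12, adjusted p = 0.492). It was 1 of 2 subunits among 32 whose transgenic arrays did not overlap those of *age-1(mg44)*, the other being *pbs-1* with a single *age-1(mg44)* array, and 11.7% of all genes were so separated (5.76% above and 5.91% below). The narrowest interval was that of *pbs-5*, −0.17 to 0.27, and for *rpt-3* it ran from −0.97 to 1.02.

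CY262 and CY251 did not differ in any of 33 subunits at the threshold (0 in limma, 0 with an unadjusted p below 0.05, 0 in the methods' t-test). Of all genes, 0% passed and 0.795% had an unadjusted p below 0.05. The subunit median of the difference was −0.03. *rpn-6.2* had the largest difference, CY262 minus CY251, at −0.46 ± 0.246 (95% interval −1.04 to 0.13, adjusted p = 1), with overlapping arrays. *rpn-1* was next, with 0.21 ± 0.295 (−0.50 to 0.91, adjusted p = 1). Since 4 arrays have conflicting records in just these strains, this comparison is the least certain of all.

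Genes that act with the proteasome were looked at as a list of 24, of which 21 were measured. In CY262 5 passed as lower, in CY251 7 and in *age-1(mg44)* 7, with medians of −0.37, −0.37 and −0.44 and 0 higher in any strain. These are 23.8%, 33.3% and 33.3% of the list, against 32.4%, 31% and 19.6% of all genes in either direction and 14.3%, 12.7% and 7.96% as lower. The lowest in *age-1(mg44)* was the polyubiquitin gene *ubq-1*, with log2 ratios of −1.41, −1.36 and −1.45 in CY262, −1.73, −1.88 and −0.95 in CY251, and −1.70 and −2.06 in *age-1(mg44)*. Its fold change was −1.41 in CY262, −1.52 in CY251 and −1.88 in *age-1(mg44)* (adjusted p = 0.00271, 0.00156 and 0.00422), lower than that of any proteasome subunit in each strain. The second ubiquitin gene, *ubq-2*, which encodes ubiquitin fused to a ribosomal protein, was the highest of the list in *age-1(mg44)* (0.39 ± 0.185, adjusted p = 0.192), followed by *dss-1*, a small lid-associated protein (0.24 ± 0.191, adjusted p = 0.425). *cdc-48.1*, the segregase that extracts ubiquitinated proteins, fell in all 3 strains (−0.74 ± 0.213, −0.85 ± 0.213 and −1.33 ± 0.261, adjusted p = 0.0401, 0.0251 and 0.0181). *skn-1*, whose product raises proteasome gene expression when the proteasome is impaired, had fold changes of 0.20 ± 0.119 in CY262, 0.18 ± 0.119 in CY251 and −0.29 ± 0.146 in *age-1(mg44)*, none past the threshold (adjusted p = 0.235, 0.305 and 0.207).

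The other lists are given by their counts, to be read against the 32.4% of all genes that passed in CY262 (18.1% as higher, 14.3% as lower), the 31% in CY251 (18.3% and 12.7%) and the 19.6% in *age-1(mg44)* (11.6% and 7.96%). Of 6 measured genes of the COP9 signalosome, a relative of the lid, 3 passed as lower in CY262, 2 in CY251 and 0 in *age-1(mg44)* (medians −0.52, −0.40 and −0.31; 1 gene had an unadjusted p below 0.05 in *age-1(mg44)*). Of 7 CCT chaperonin genes, which fold cytosolic proteins, 1 passed as lower in each strain (medians −0.22, −0.41 and −0.47). Among 75 cytosolic ribosomal protein genes, 17 passed as higher and 3 as lower in CY262, 18 and 3 in CY251, and 13 and 0 in *age-1(mg44)*. Of the 12 intestine markers, 6, 6 and 4 passed as higher, and of the 11 neuron markers 4, 4 and 0, with none lower in these lists (5 neuron markers had an unadjusted p below 0.05 in *age-1(mg44)*).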

How the data were processed

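The authors labeled RNA of each strain with Cy3 and wildtype RNA with Cy5, hybridized both to 2-color Agilent arrays and read the spots with Agilent Feature Extraction A.7.5.1. The deposited intensity values are raw, background and processed signals of each spot. The deposited log10 values, in the spot files and in the value table, are the software's ratio of processed red to processed green signal, turned to strain over wildtype here. The deposited value table was used to check which array each column holds (equal within 1e-05) and for an alternative assignment. The methods give 3 replicates for N2 against 8 arrays, so arrays may share wildtype RNA, and no dyes were swapped. P-values measure the spread between arrays.

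Ratios were computed in limma 3.58.1 (R 4.3.3, with statmod 1.5.0 for the random block). Raw signals were corrected for background (normexp, offset 50) and normalized by loess within each array. Control spots had no weight, and outlier spots, as marked by the software, were not used. Probes needed a mean raw wildtype signal above 100, as in the methods, which removed 0. The brightest probe of each gene was used, for 18877 genes, of which 18124 were matched to the reference annotation (WBcel235, for names only). *rpn-13* and *rpn-6.2* carry sequence names in the files and were named through it, and *rpn-6* of the files is *rpn-6.1*. The files list 722 probes for more than 1 gene. One model with a mean for each strain was fitted to the 8 arrays (lmFit, eBayes), and p-values were adjusted over all genes, with a threshold of 0.05. The model was tested on simulated data. The members, gene lists and alternatives were chosen with earlier results of these data known.

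Every subunit could be named. In full are given *pbs-1*, *pbs-2*, *pbs-5*, both *rpn-6* genes, *rpn-10*, *rpn-11*, *rpn-13*, the extremes of core, base and lid in *age-1(mg44)*, the 3 subunits with the largest difference between the transgenic strains and *age-1(mg44)*, and the 2 with the largest between CY262 and CY251. Of the partner genes, the 2 highest, the 2 lowest and *skn-1* are given. *pas-1*, *pas-2*, *pbs-4*, *pbs-7*, *rpt-2*, *rpt-3*, *rpt-6*, *rpn-3*, *rpn-8* and *rpn-9* were chosen after their values were seen. Alternatives changed the background correction, normalization, filters, probe choice, variance model, test, replicate terms, arrays included and their assignment. In the methods' t-test, 7, 9 and 3 subunits were below an unadjusted 0.05 in CY262, CY251 and *age-1(mg44)* against wildtype, and 0 after Benjamini-Hochberg adjustment in each. Against wildtype this test was run unpaired, strain channels against wildtype channels, on signals normalized within each array only. It thus ignored that both channels share an array, and differences in brightness between arrays entered its spread. The methods scaled the signals in another way.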

Additional observations from a re-analysis of the deposited data

Results flagged for a closer look

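The difference between core and regulatory particle had opposite signs in the mutant and in the strains with restricted *age-1*. The core median minus the regulatory median averaged −0.18 ± 0.0886 in CY262 (SD, n = 3 arrays) and 0.09 ± 0.0444 in *age-1(mg44)* (SD, n = 2 arrays), and CY262 minus *age-1(mg44)* was −0.27. In CY251 it averaged −0.13 ± 0.138 (SD, n = 3 arrays), and CY251 minus *age-1(mg44)* was −0.22. The difference was flagged because all 3 arrays of CY262 and all 3 of CY251 lay below 0 and both of *age-1(mg44)* above it. That split was the rule of selection and adds no support. The CY251 array of replicate 2 was at −0.0030, and at 0.01 without *rpn-6.2*. The medians of the fitted fold changes are another measure than these averages over arrays. In CY262 they were −0.64 for the core and −0.54 for the regulatory particle in the main fit, and their difference was 0.0121 with median centring. Neither difference between strains was tested.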

How the results depend on the processing

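The median of the subunits was below 0 in all 3 comparisons with wildtype under each of 28 alternatives. Between strains, 0 subunits passed under any of them, but the number past the threshold against wildtype was not stable. The share of all genes is given above for the main fit and median centring only. The other counts therefore do not tell a change in the subunits from a change in all genes. Against wildtype it was 12 in CY262, 13 in CY251 and 9 in *age-1(mg44)*, and it was 30, 31 and 28 with median centring. Raw signals divided by the channel mean gave 31, 32 and 29, with the median of all genes moved to 0.44, 0.48 and 0.56 and the subunit median at −1.68, −1.80 and −1.82 relative to it. The methods' t-test gave 0, 0 and 0, but it was run unpaired. Its spread holds differences in brightness between arrays, so these counts do not bear on how stable the calls are. Fitted to the arrays of the comparison only, CY251 had 8 and *age-1(mg44)* 0. With CY262 and CY251 replicate 2 exchanged, CY262 had 21. Leaving out 1 array gave 4 to 13 in CY262, the lowest without CY262 replicate 2 or 3 (4 each). In CY251 it gave 4 to 14, the lowest without CY251 replicate 2 (4, and 5 without replicate 3). In *age-1(mg44)*, 5 passed without CY262 replicate 2 or CY251 replicate 3. Leaving out an *age-1(mg44)* array leaves a single one, so no count is given for it. Without all replicate 1 arrays, an alternative chosen after seeing the data, the subunit median in *age-1(mg44)* was −0.95.

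Replicate numbers were not used in the main fit, which leaves any shift shared by same-numbered arrays in its spread. The deviations of the replicate 1 arrays from their strain means correlated from 0.61 to 0.79. The 2 *age-1(mg44)* arrays mirror each other around their mean. A correlation with one is thus that with the other with its sign changed, and they do not count separately. The *age-1(mg44)* array of replicate 2 correlated at 0.45 and 0.55 with replicate 2 of CY262 and CY251, and at 0.49 with CY262 replicate 3. Replicate 2 of CY262 and CY251 (−0.16), whose records conflict, did not shift together, and their replicate 3 arrays correlated at 0.23. Differently numbered arrays also correlated, by up to 0.49 for CY262 replicate 2 and CY251 replicate 3. The value table gives both of these arrays the number 3. It gives the number 2 to CY251 replicate 2 and CY262 replicate 3, which correlated at 0.42. Which numbering is right was not tested. With the replicate number as a fixed block, 22, 22 and 24 subunits passed in CY262, CY251 and *age-1(mg44)*, and with a random block 15 in *age-1(mg44)*. The value table's assignment with its replicate block, chosen after seeing the data, gave 27, 26 and 25. The share of all genes that passed with a block is not given here, so these counts do not single out the subunits.

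The core median minus the regulatory median in *age-1(mg44)*, 0.11, was 0.0475 without background subtraction, 0.23 with median centring, 0.20 with outlier spots kept, 0.0567 with the random block, and 0.0621 to 0.12 when 1 array was left out. In CY262, −0.11, it was 0.0121 with median centring and −0.21 with the value table's assignment and block. For the mean of both strains against *age-1(mg44)*, −0.27, it was −0.38 to −0.25 when 1 array was left out, −0.38 without *age-1(mg44)* replicate 1 and −0.37 without replicate 2.

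*rpn-13* changed sign in CY262 with median centring (−0.0246), with the channel mean (−0.0068) and with its other probe (−0.47), and in CY251 with the channel mean (−0.0064) and with its other probe (−0.49). In *age-1(mg44)*, where it had not passed, it was below 0 with median centring (−0.30), the channel mean (−0.25), the mean of both probes (−0.14) and its other probe (−0.64). The other probe was an alternative chosen after seeing the data. The cause of these shifts was not tested. Depth limits little here, since all subunits were well above background, and the number of arrays limits the precision.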
